A study of Mus musculus with 2 samples.

Results

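The genes described here are 35 secreted or membrane-released factors linked to the senescence-associated secretory phenotype, the mix of cytokines, growth factors, matrix proteases and protease inhibitors that senescent cells release. They were listed by name, and their probes were found by matching each probe's transcript accession to RefSeq symbols. Of the 35 genes, 33 were read by at least 1 of 49 named probes, and Lif and Igfbp6 had no named probe. The whole array named 18434 genes. By role the members comprise 16 growth factors and cytokines, 6 matrix metalloproteinases, 3 genes of plasminogen activation, 4 protease inhibitors, 5 IGF-binding proteins and the adhesion molecule gene Icam1.

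The members were compared between 1 array of Menin WT and 1 array of Menin KO CD4 T cells. Both groups came from the spleen of female C57BL/6J mice and differed in the labelled genotype. The labels give neither the way Men1 was deleted nor the age or number of mice. On either genotype, naive cells positive for CD4 and CD62L were activated through the T cell receptor beta chain (antibody at 3 µg/ml) and CD28 (1 µg/ml) for 2 days and cultured for 3 more, with IL-2 at 2.5 ng/ml throughout. These are primary activated T cells, and markers of senescence at the protein or enzyme level were not analysed here.

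Senescent cells are known for secreting factors that act on their neighbours: IL-6 family cytokines, ligands of the EGF receptor, and proteases that cut the extracellular matrix. Matrix metalloproteinases are held in check by the TIMP proteins, plasminogen activators by serpins, and insulin-like growth factors by IGF-binding proteins, so a secretory programme has an active side and a restraining side. Most of this programme was described in fibroblasts and epithelial cells. In activated T cells, osteopontin, oncostatin M and MIF are familiar products, while many of the metalloproteinases belong mainly to stromal and myeloid cells.

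Values are the scanner's processed signals, and differences are KO minus WT on the log2 scale after each array was set relative to its 75th percentile of signal (644 in WT, 650 in KO). With 1 array per genotype no difference was tested, and the number of arrays limits the precision. Spots of probes printed several times gave a scatter of the difference of 0.314 (pooled SD, log2) for 36 probes with signals under 100 and 0.0541 for 110 brighter probes. This is scatter within the arrays and leaves out mice, cultures and labelling. In these mixed RNA preparations, a change in the share of cells expressing a gene and a change in RNA per cell cannot be told apart. Men1 read 1081 in WT against 459 in KO, 2.38-fold lower, and Bach2 had 4643 and 604, 7.76-fold lower. The Men1 probe's place relative to the deleted part is not known here. All 8 T cell markers were well above background on both arrays, with summed signals of 199141 in WT and 139296 in KO. Cd4 itself was at 443 in WT and 279 in KO, Cd5 was 3.32-fold lower and Cd2 2.31-fold lower in KO, and the other 5 lay within 2-fold.

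Of the 33 members with a probe, 22 were detected, meaning called well above background by the scanner software: 18 on both arrays and 4 on the KO array alone. Another 11 were detected on neither array. The detected share of members with a probe was 66.7%, beside 74.8% of all named genes. At least 2-fold higher in KO were 6 of the 22, or 27.3%, where 10.8% of all named genes with a value were that much higher. At least 2-fold lower were 2, or 9.09%, beside 5.14% of all named genes. A further 10 lay between these limits, and the 4 read in KO alone had bounds under 2-fold. The median of the 22 values was 0.46, its middle values being the bounds of Il6 (0.35) and Igfbp2 (0.56), which the WT detection limit sets. Over the 18 read on both arrays the median difference was 0.21. The same medians over all named genes were -0.01 and -0.03. The 22 were kept by a filter that a gene passes through its higher array, so their median is a description of those genes and not of all 35.

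**Figure D1:**
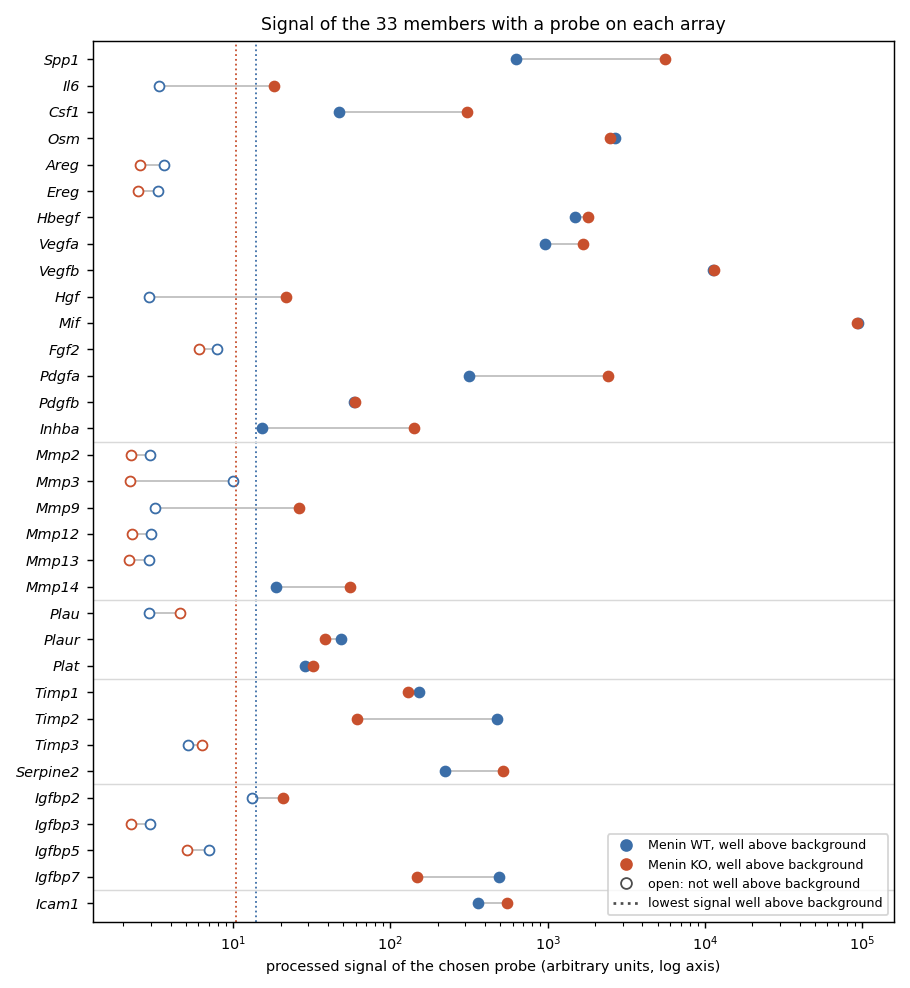
Processed signal (log axis, arbitrary units) of the brightest probe of each of the 33 members with a probe, in Menin WT (blue) and Menin KO (orange). Filled circles are well above background, open circles are not, and dotted lines mark the lowest signal well above background, 14.0 in WT and 10.4 in KO. Il6, Hgf, Mmp9 and Igfbp2 are filled in KO only, and among members filled on both arrays Timp2 and Igfbp7 have the widest gap towards WT.

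Among the growth factors and cytokines, 12 were detected. The KO array was past the 2-fold limit on the higher side for 4 of them and on the lower side for none, 6 lay between the limits and 2 had bounds under 2-fold. Over all named genes with a value, 10.8% were past it on the higher side and 5.14% on the lower. Spp1 encodes osteopontin, a secreted phosphoprotein that binds CD44 and integrins. Its probe was printed 10 times, with a mean signal of 632 ± 24.1 (SD, n = 10 spots) in WT and 5592 ± 136 (SD, n = 9 usable spots) in KO, an 8.78-fold difference. The lowest KO spot, 5415, was far above the highest WT spot, 693. Csf1, the growth factor of macrophages, was read at 47.3 ± 2.09 (SD, n = 8 spots) in WT and 305 ± 10.4 (SD, n = 10 spots) in KO, 6.41-fold higher. Its spots also did not overlap, with a WT maximum of 50.2 and a KO minimum of 284.

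Pdgfa, which encodes the A chain of platelet-derived growth factor, read 314 in WT against 2426 in KO, 7.66-fold higher. Its second, dimmer probe gave 30.9 in WT and 195 in KO, 6.27-fold higher, so both probes read the higher level in KO. The gene of the B chain, Pdgfb, had 58.8 in WT and 59.8 in KO, and both of its probes were within 0.08 of 0. The genes of the A and B chains therefore differed in their KO to WT ratio on these arrays. Inhba encodes the subunit that forms activin A, a TGF-beta family ligand. It went from 15.3 in WT, near that array's lowest signal well above background, to 142 in KO, 9.22-fold higher by its 1 probe. This was the largest fold of the members measured on both arrays and it rests on a dim WT signal: after normexp, a model-based background correction that adds an offset of 50, the Inhba difference was 0.14. It was 1.18 when the local backgrounds of 6 WT spots, which read over 200, were first replaced by the array's median background. For Csf1 the same corrections gave 0.81 and 1.58.

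Vegfa, the main angiogenic growth factor, was 1.73-fold higher by the probe printed 10 times, with 968 ± 20.4 (SD, n = 8 spots) in WT and 1688 ± 48.1 (SD, n = 10 spots) in KO. Its other 3 probes gave log2 differences of 0.42, 0.69 and 0.71, so 4 of 4 probes were higher in KO and none reached 2-fold. Vegfb, a related factor that binds VEGFR1, had 11269 in WT and 11437 in KO, a log2 difference of 0.01.

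Mif, Osm and Hbegf were close to equal on the arrays. Mif, encoding macrophage migration inhibitory factor, had 94158 in WT and 92242 in KO (log2 difference -0.04). Osm, encoding the IL-6 family cytokine oncostatin M, had 2678 in WT and 2510 in KO, and its probes gave -0.11 and 0.02. Hbegf, encoding a heparin-binding ligand of the EGF receptor, had 1494 in WT and 1807 in KO (log2 difference 0.26). Areg and Ereg, the genes of further EGF receptor ligands among the members, were not detected on either array. Their signals were 3.65 and 3.31 in WT and 2.55 and 2.48 in KO, in the range where the software writes surrogate values for dim spots and ratios have no meaning.

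Il6, encoding the cytokine most often used as a readout of the secretory phenotype, was detected on the KO array alone, and it was dim there. Its 10 KO spots had a mean of 18.2 ± 2.46 (SD) and were each called well above background. None of the 10 WT spots was, and their highest signal was 7.77. Because the lowest called WT signal was 14.0, the difference can be stated only as at least 1.28-fold higher. Hgf, encoding hepatocyte growth factor, showed the same pattern with 1 of its 2 probes: 21.6 in KO and not well above background in WT, at least 1.53-fold higher. Its other probe was not detected on either array. Fgf2 was not detected on either array by either probe. Across all named genes measured, 7.9% were detected on the KO array alone and 1.61% on the WT array alone, beside 4 (18.2%) and none of the 22 members. The KO array's lowest called signal was lower than that of WT, and with 1 common limit for both arrays the same counts were 4 and 0 members, while the share of all named genes read in KO alone was 6.08%.

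**Figure D2:**
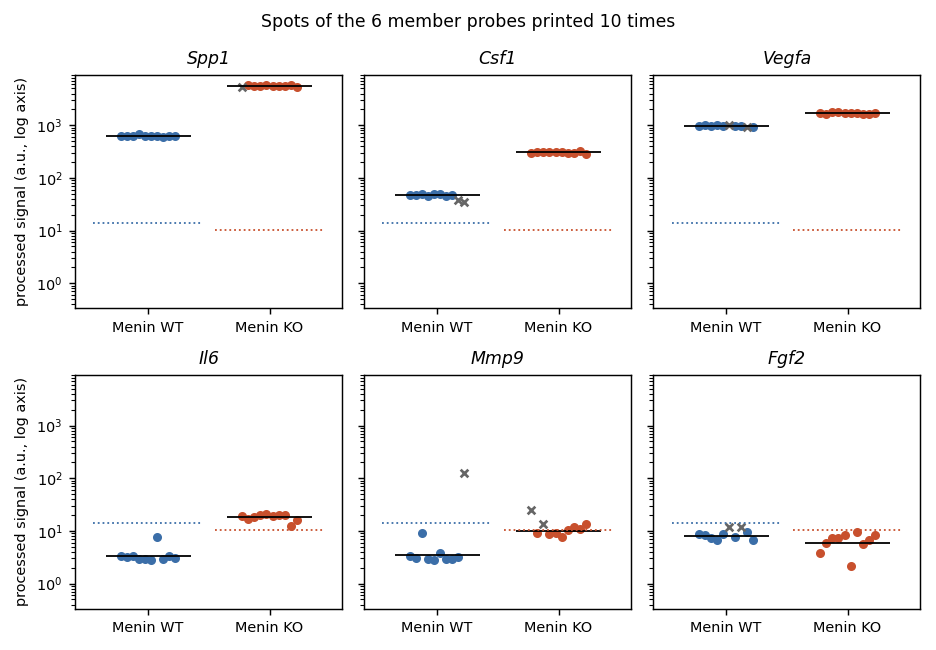
Signals (log axis, arbitrary units) of the single spots of the 6 member probes printed 10 times, on the WT and KO arrays. Crosses are spots with an outlier flag, which were left out, black lines are means of log2 signal, and dotted lines mark each array's lowest signal well above background. The usable spots of Spp1, Csf1, Vegfa and Il6 do not overlap between arrays, while those of Fgf2 do and lie under the limit.

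Matrix metalloproteinases were largely undetected. Of 6 members, Mmp2, Mmp3, Mmp12 and Mmp13 were not detected on either array, with signals of 2.89 to 9.91 in WT and 2.18 to 2.26 in KO. Those 4 genes encode gelatinase A, stromelysin 1, macrophage elastase and collagenase 3. Mmp14, encoding a membrane-anchored collagenase that activates gelatinase A, was read at 18.7 in WT and 55.7 in KO, 2.95-fold higher. Its second probe was not detected on either array (4.81 in WT, 9.51 in KO). The Mmp14 call does not hold under background correction by normexp, which gave -0.58, or 0.41 with the aberrant backgrounds replaced.

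Mmp9 encodes gelatinase B, a protease that activated leukocytes release. One probe read 3.17 in WT and 26.2 in KO and was detected in KO alone, at least 1.85-fold higher. The second probe, printed 10 times, had a mean of 10.2 ± 1.81 (SD, n = 8 usable spots) in KO, with 2 of the 8 spots called well above background, and so did not count as detected. In WT 1 of its 10 spots read 128 and carried an outlier flag, while the 9 usable spots lay between 2.80 and 9.19. Thus 1 probe of Mmp9 was detected in KO and the other was not, and the lowest signal called on that array was 10.4. With the aberrant backgrounds replaced the Mmp9 bound was 0.05 on the log2 scale.

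The promoters of 3 undetected metalloproteinases, Mmp3, Mmp12 and Mmp13, are shown because they carry the letters of the AP-1 core, a sequence that Bach proteins can also bind. In RefSeq promoter windows (GRCm38.p6, 250 bases before to 50 after the gene start), 27 of the 35 members had an entry, and Mmp2 was among the 8 without one. The core TGANTCA, searched on both strands, lay in the windows of 7 of these 27 genes (25.9%), beside 8.97% of the 27025 genes with a window. The 7 genes were Mmp3, Mmp12, Mmp13, Il6, Igfbp2, Plaur and Lif. None of the 8 members that were at least 2-fold apart had this core in its window. At the share of 8.97% over all genes, few or none would be expected among 8. Those matches are a description of letters and no measure of binding. The last 100 bases before the start of each metalloproteinase gene are given 5′ to 3′, with the core in capitals; all 3 lie on chromosome 9, plus strand, at chr9:7445722-7445821 (Mmp3), chr9:7347274-7347373 (Mmp12, 1 of its 2 windows) and chr9:7272414-7272513 (Mmp13).
Mmp3: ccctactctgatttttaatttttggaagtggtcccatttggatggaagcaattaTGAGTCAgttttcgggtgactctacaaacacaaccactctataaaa
Mmp12: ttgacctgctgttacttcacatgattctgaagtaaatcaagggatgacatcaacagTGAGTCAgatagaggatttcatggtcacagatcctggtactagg
Mmp13: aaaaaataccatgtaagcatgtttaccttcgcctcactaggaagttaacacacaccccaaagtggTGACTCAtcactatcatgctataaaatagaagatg
In each of the 3 the core begins less than 50 bases before the annotated start, at -46 (Mmp3), -44 (Mmp12) and -35 (Mmp13).

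The windows of the cytokine genes are shown for comparison, since Il6 was read in KO alone, Csf1 was higher in KO and Spp1 had the largest fold of the bright members. The NF-kB site searched (GGGA, any base, then TTTCC, on both strands) was found in 2 of the 27 member genes (Il6 and Csf1) and in 0.466% of all genes with a window. The cyclic AMP response element TGACGTCA was found in Mif and Areg, 2 of 27, beside 2.03% of all genes. No match of 1 motif overlapped a match of another in these windows. The 250 bases before the start are given 5′ to 3′ on the gene's strand, with matches in capitals: Il6 at chr5:30012864-30013113 (plus), Csf1 at chr3:107760470-107760719 (minus) and Spp1 at chr5:104434861-104435110 (plus, 1 of 2 windows).
Il6: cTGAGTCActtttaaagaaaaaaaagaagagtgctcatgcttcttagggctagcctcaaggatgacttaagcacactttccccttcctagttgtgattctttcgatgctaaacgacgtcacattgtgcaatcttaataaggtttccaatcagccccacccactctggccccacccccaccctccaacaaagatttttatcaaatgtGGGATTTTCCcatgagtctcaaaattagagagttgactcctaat
Csf1: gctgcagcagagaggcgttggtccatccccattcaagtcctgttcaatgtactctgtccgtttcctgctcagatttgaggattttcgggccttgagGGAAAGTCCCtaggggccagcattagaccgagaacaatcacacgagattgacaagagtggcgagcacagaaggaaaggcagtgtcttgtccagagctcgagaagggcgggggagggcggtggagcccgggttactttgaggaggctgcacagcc
Spp1: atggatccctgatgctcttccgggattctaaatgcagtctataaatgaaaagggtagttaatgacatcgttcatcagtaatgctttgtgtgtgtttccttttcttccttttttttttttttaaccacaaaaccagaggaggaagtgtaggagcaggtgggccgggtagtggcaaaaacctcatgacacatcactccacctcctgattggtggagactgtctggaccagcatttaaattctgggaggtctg
Il6 holds an AP-1 core at -249 and an NF-kB match at -44, Csf1 an NF-kB match at -154, and neither Spp1 window holds any of the 3 motifs.

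Genes of plasminogen activation were close to equal or undetected in the main processing, though lower in KO after normexp. Plau, encoding urokinase, was not detected on either array by either probe. Its receptor gene Plaur had 48.3 in WT and 38.2 in KO (log2 difference -0.35), and the second probe gave -0.19. Plat, encoding tissue plasminogen activator, had 28.8 in WT and 32.3 in KO (log2 difference 0.16), while its other probe was not detected on either array. The differences of both detected genes were no larger than about the spot scatter at this signal. After normexp they were -1.06 for Plaur, past the 2-fold limit, and -0.999 for Plat, just inside it, and with the aberrant backgrounds replaced -0.23 and -0.06.

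The protease inhibitors went in opposite directions. Timp2, encoding an inhibitor of metalloproteinases that also takes part in gelatinase A activation, was read at 477 in WT and 61.4 in KO, 7.84-fold lower (-2.29 on the log2 scale after normexp). It was the strongest decrease among the members detected. Serpine2, encoding protease nexin 1, an inhibitor of thrombin and plasminogen activators, was read at 221 in WT and 522 in KO, 2.34-fold higher. Its log2 difference was 1.00 with the aberrant backgrounds replaced, just under the 2-fold limit, and 0.71 after normexp as given. Timp1, encoding another metalloproteinase inhibitor, had 153 in WT and 130 in KO (log2 difference -0.25), but its dimmer probe gave -0.98 from signals of 22.3 and 11.4. Timp3 was not detected on either array. The 4 inhibitors therefore gave 1 higher, 1 lower, 1 between and 1 undetected.

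Of the IGF-binding proteins, which hold insulin-like growth factors in the extracellular space, 2 of 4 with a probe were measured. Igfbp7, encoding a binding protein reported as a secreted mediator of oncogene-induced senescence, was read at 488 in WT and 148 in KO, 3.33-fold lower. Igfbp2 was detected in KO alone, at 20.8 against 13.1 in WT, at least 1.48-fold higher. Igfbp3 and Igfbp5 were not detected on either array. Icam1, encoding the adhesion ligand of the integrin LFA-1, had 361 in WT and 553 in KO (1.52-fold higher, log2 difference 0.60).

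**Figure D3:**
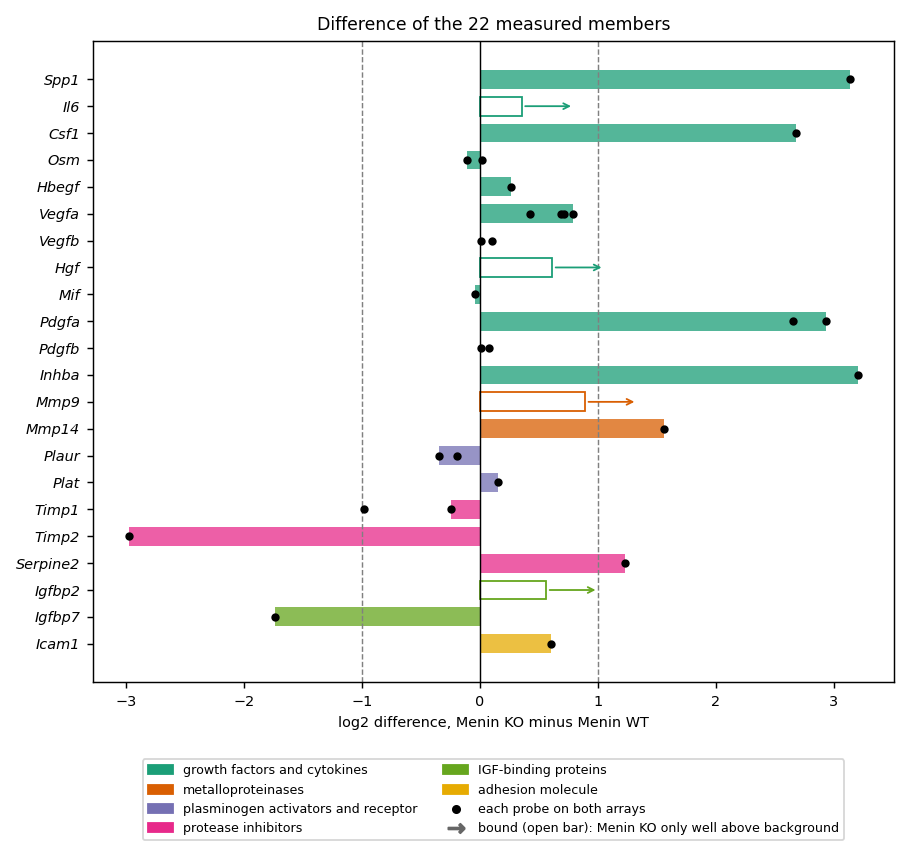
The log2 difference, Menin KO minus Menin WT, of the 22 measured members, coloured by class, with a point for each probe read on both arrays and dashed lines at the 2-fold limits. Open bars with arrows are bounds for members detected in KO alone. Spp1, Csf1, Pdgfa, Inhba, Mmp14 and Serpine2 pass the upper limit, and Timp2 and Igfbp7 the lower one.

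Probes of the same gene mostly went the same way. For 7 members with several probes on both arrays, the signs matched in 6, and the exception was Osm, whose probes were both near 0. The probes of Pdgfb (0.01 and 0.08) and Vegfb (0.01 and 0.10) were also near 0, so their matching signs carry little weight. The widest gap between probes of 1 member was 0.73, for Timp1. Of the 8 members at least 2-fold apart, Pdgfa alone was read on both arrays by more than 1 probe. Spp1 and Csf1 have 1 probe each, whose repeated spots gave an SD of the spot difference of 0.0583 and 0.0642. Those spots measure the scatter of 1 probe and cannot replace a second probe. Timp2, Igfbp7, Inhba, Mmp14 and Serpine2 each rest on 1 spot per array.

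**Figure D4:**
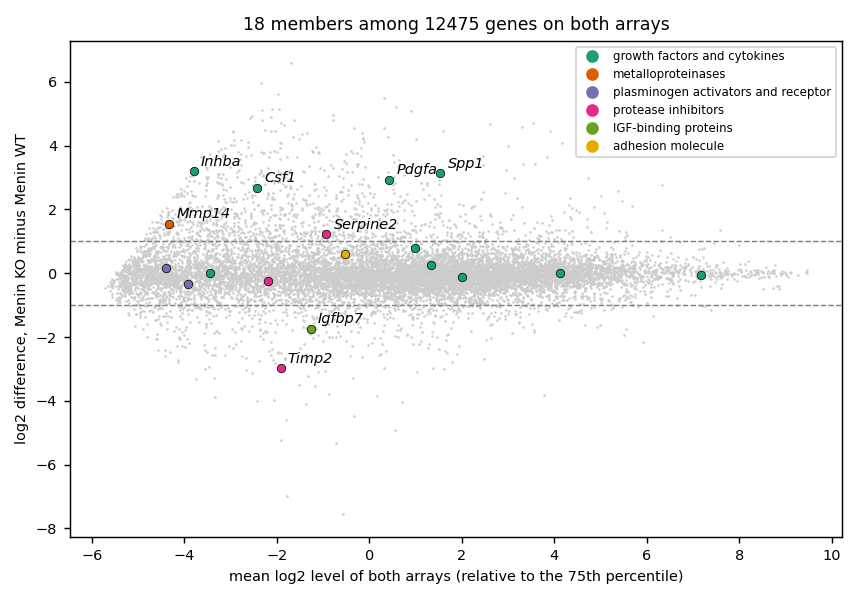
The log2 difference (KO minus WT) against the mean log2 level for the 12475 named genes read on both arrays (grey) and the 18 members among them (coloured by class). The named members lie outside the dashed 2-fold limits; Inhba and Mmp14 sit at the dim end, where grey points also spread widely, whereas Spp1 and Pdgfa sit at brighter levels.

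Receptors and binding partners of the factors were listed beside them. Their median was 0.36, and 0.28 over the 17 read on both arrays. The same medians over all named genes were -0.01 and -0.03. Of 24 with a value, 5 passed the 2-fold limit upwards in KO and 2 downwards, 14 stayed inside it, and 3 had bounds under 2-fold. These counts include bounds of genes detected on 1 array only, and over probes read on both arrays 2 passed upwards and 1 downwards. Among all named genes with a value, 10.8% passed it upwards and 5.14% downwards. Pdgfrb, encoding the receptor of the PDGF B chain, was detected in KO alone, at 505 against 13.3 in WT, at least 35.7-fold higher (a log2 bound of 5.16, but 1.68 after normexp and 2.68 with backgrounds replaced). Lrp1, encoding an endocytic receptor that clears complexes of proteases and serpins, had 116 in WT and 727 in KO, 6.21-fold higher (1.51 on the log2 scale after normexp). Osmr, the receptor subunit of oncostatin M, was at least 3.03-fold higher, from a KO signal of 42.8, but its log2 bound was 0.43 with backgrounds replaced. Il6ra, the IL-6 receptor, had 96.7 in WT and 32.2 in KO, 3.03-fold lower, and inside the limit at -0.77 with backgrounds replaced.

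Other proteases had a median of 0.26, which is the bound of a gene detected in KO alone and is set by the WT detection limit. Over the 8 read on both arrays the median was 0.28. Of 11 with a value, 4 passed the 2-fold limit upwards and 1 downwards, 4 stayed inside it and 2 had bounds under 2-fold. Among all named genes with a value, 10.8% passed it upwards and 5.14% downwards. Adam8, encoding a membrane metalloproteinase of leukocytes, had 5492 in WT and 85152 in KO, 15.4-fold higher. Furin, encoding the convertase that activates Mmp14 protein and many growth factors, was 2.73-fold higher. Mmp10, encoding stromelysin 2, was detected in KO alone and at least 4.17-fold higher, but with backgrounds replaced its log2 bound was 0.48, inside the limit. Mmp11, encoding stromelysin 3, was 3.20-fold lower. Among other inhibitors and IGF genes, the median was 0.33, and 2 of 9 passed the limit upwards, 1 passed it downwards and 6 stayed inside it. The same shares of all named genes, 10.8% and 5.14%, stand beside these counts. Igf1, a growth factor that the binding proteins hold, had 16.3 in WT and 109 in KO, 6.62-fold higher. Igf2 was 2.26-fold higher, Igfbp4 2.01-fold lower and Serpinb6a 1.53-fold higher. The Igf1 and Igf2 differences were -0.08 and -0.57 after normexp, and 0.94 and 0.33 with backgrounds replaced. Igfbp4 lay inside the limit after normexp (-0.80), with backgrounds replaced (-0.95), in the deposited table (-0.98) and as the mean over probes (-0.94), where Igf2 was 0.93.

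Transcription regulators of senescence secretory genes had a median of 0.32, with 4 of 14 past the limit upwards, none downwards and 10 inside it. Among all named genes with a value, 10.8% were past it upwards and 5.14% downwards. The AP-1 genes Fosl2, Jun and Junb were 6.10-fold, 2.39-fold and 2.22-fold higher, and Cebpd, of the C/EBP family, was 2.07-fold higher. Jun fell inside the limit after normexp (0.54) and with backgrounds replaced (0.96), and Fosl2 stayed past it at 1.45 and 1.99. Cebpd was -0.37 and 0.44 under the same corrections, 0.98 with quantile and 0.97 with median scaling.

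Several of the members are made by other cell types, and markers of these cells also differed between the arrays. Of 9 macrophage and monocyte markers with a probe, 5 were well above background in WT and 6 in KO, with summed signals of 376 and 698. Cd14 and Fcgr3, the brightest in KO, had signals of 256 and 134 there and were 7.25-fold and at least 9.50-fold higher than in WT, and Adgre1 was at least 5.08-fold higher. Other markers of the list went the other way or were equal: Lyz2 was detected in WT alone, at least 1.90-fold lower in KO, Mpeg1 was 1.56-fold and Csf1r 1.31-fold lower, and C1qb had a difference of 0.00. Over the 4 read on both arrays the median was -0.19. C1qa and Itgam were well above background on neither array. Of 7 stromal markers, 3 were well above background in WT and 4 in KO, with summed signals of 209 and 843, most of the KO sum being Pdgfrb. Lum was 7.18-fold higher, and Col1a2 had a log2 difference of 0.13. Col1a1 was detected in KO alone, at least 1.08-fold higher, and Col3a1 in WT alone, at least 1.41-fold lower in KO. Pdgfra and Dcn were not detected on either array. For mast cells and basophils the sums were 107 and 654 (6 markers with a probe). Most of the KO sum was Cpa3 (367) and Mcpt8 (162), while Prss34 had a log2 difference of 0.24 and Ms4a2 was detected on neither array. For B cells the sums were 907 and 1605 (6), mostly Cd79b (665 in WT, 1155 in KO), with Pax5 and Ebf1 detected on neither array. The CD8 T cell marker Cd8a had 312 and 3213. For natural killer cells the sums were 2196 and 7629 (6), most of the KO sum being Fcer1g (5087), while Eomes was lower (1031 in WT, 452 in KO). For endothelial cells they were 238 and 334 (5), mostly Pecam1 (202 and 320), while Kdr was detected in WT alone and at least 2.60-fold lower. For neutrophils they were 59.9 and 42.5 (6), where Mpo alone was well above background (43.1 in WT, 31.3 in KO). For megakaryocytes and platelets they were 72.2 and 64.8 (5). Pf4 and Ppbp, which define platelets, were well above background on neither array. The part of these cells in the members' differences was not tested.

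**Figure D5:**
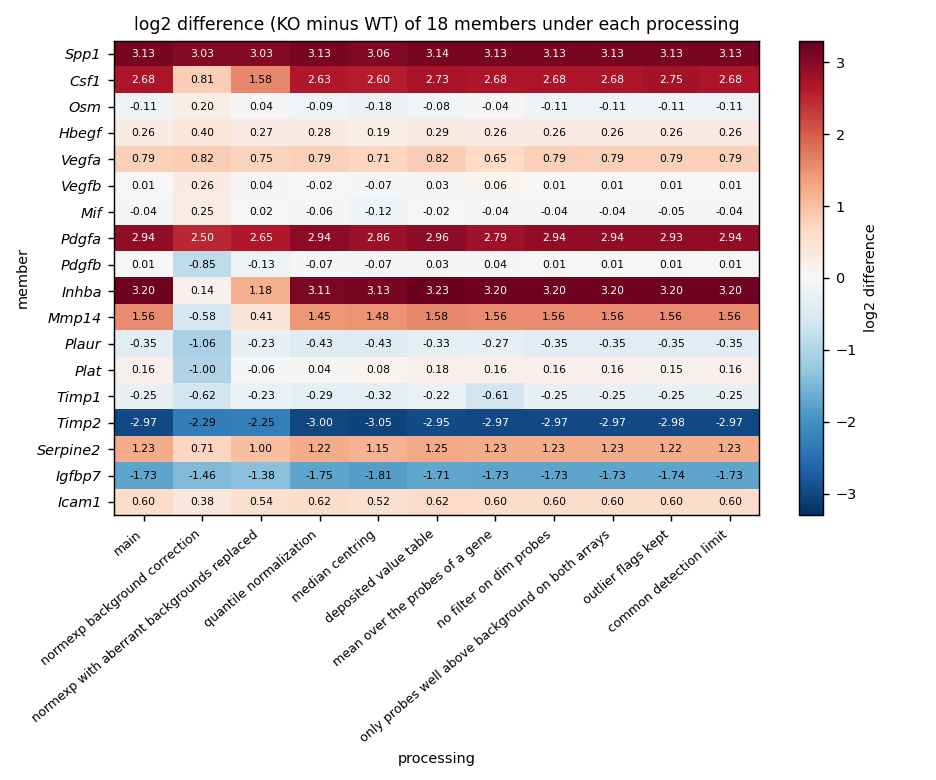
The log2 difference (KO minus WT) of the 18 members read on both arrays (lines) under the main processing and 10 alternatives (columns), red for higher and blue for lower in KO. Spp1, Pdgfa, Timp2 and Igfbp7 stay past the 2-fold limit in each column, whereas Inhba, Csf1, Mmp14 and Serpine2 lose it under normexp.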

How the data were processed

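Total RNA was labelled with Cy3 and hybridised to 1 Agilent mouse array per genotype. Per the file headers, Feature Extraction 10.7.3.1 made the deposited intensity values (10.7 per the submitters' processing notes): background-subtracted, detrended, linear, unscaled between arrays, with dim spots at a surrogate value and probes designed on mm9. The deposited value table is on a log2 scale; its entries equal the log2 scanner signal less 1 constant per array for 99.7% of probes within 0.01, with medians of -3.97 (WT) and -3.90 (KO). The deposited flags, another kind of column, mark outlier spots (115 on WT and 103 on KO, left out) and spots well above background.

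Spots of a probe were averaged on the log2 scale, and a probe counted as well above background when most of its usable spots did. Accessions were matched to RefSeq symbols of GRCm38.p6: 27050 of 41174 probes had a symbol. A gene took its brightest detected probe. Where it was detected on 1 array only, the difference is a bound: the detected level less the other array's own value or lowest detected level, whichever is higher. A bound of the opposite sign was left out, so in the main processing the bounds of genes detected in KO alone are never negative. Named were all members, the 4 largest differences of each other list, Men1, Bach2 and the 2 brightest KO markers of a cell type (shown for some). Other markers named were picked after their values were seen. The members and lists were chosen with earlier results of these data known. The procedure was tested on simulated data, where only genes with WT signals above 100 were shifted and noise was equal for dim and bright spots. It therefore did not test how differences of dim genes are recovered. Alternatives used limma 3.58.1 (normexp, offset 50, on median signals). Python 3.11.15 did the rest.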

Additional observations from a re-analysis of the deposited data

How the results depend on the processing

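Spp1, Pdgfa, Timp2 and Igfbp7 stayed at least 2-fold apart under each of the 10 alternatives at the 2-fold limit, and the values of Spp1 ranged from 3.03 to 3.14. Members at least 2-fold higher numbered 6, but 2 after normexp, 4 with backgrounds replaced and 9 with no filter. They numbered 10 at a 1.5-fold limit and 4 at a 4-fold limit. Those lower numbered 2, but 3 after normexp or with no filter, and 1 at a 4-fold limit. For the other results below, counts within a ratio of 1.5 of the main count and medians within 0.16 of the main median are left out. The members' median of 0.46 was 0.23 after normexp, 0.066 with aberrant backgrounds replaced, 0.011 when dim probes were kept and 0.21 over probes read on both arrays. By class, after normexp the median was -1.03 for plasminogen genes, -0.62 for inhibitors and 0.38 for Icam1. Metalloproteinases then had -0.58 from Mmp14 alone, and IGF-binding proteins -1.46 from Igfbp7 alone. With backgrounds replaced the median was 0.27 for growth factors and 0.23 for metalloproteinases, and -1.38 for IGF-binding proteins, again from Igfbp7 alone. With no filter the median was 0.26 for growth factors, -0.41 for metalloproteinases, 0.16 for plasminogen genes and 0.017 for inhibitors. Values with no filter, the 0.011 above among them, include undetected probes whose ratios have no meaning. Mmp2, Mmp12 and Mmp13, detected on neither array, gave -0.41, -0.42 and -0.42 this way. Over probes read on both arrays Mmp14 alone gave 1.56 for metalloproteinases and Igfbp7 alone -1.73 for IGF-binding proteins. As the mean over probes the median was -0.61 for inhibitors. Higher receptors numbered 3 after either normexp and 2 over probes on both arrays. Lower receptors numbered 5 after normexp, 0 with backgrounds replaced, 4 with quantile or median scaling, and 1 over probes on both arrays or with a common detection limit, an alternative chosen after seeing the data. Lower proteases numbered 2 with no filter. Higher inhibitors and IGF genes numbered 0 after either normexp and 1 as the mean over probes. Lower ones numbered 2 after normexp and 0 with backgrounds replaced, the deposited table or the mean over probes. Higher regulators numbered 2 after either normexp, and 2 were lower after normexp. Reversed after normexp were Mmp14 (-0.58), Igf1 (-0.081), Igf2 (-0.57) and Cebpd (-0.37). An offset of 50, by its construction, shrinks differences of dim signals. The normexp runs as given and with backgrounds replaced differed only in the backgrounds of 6 WT spots and 0 KO spots. Values that change between these runs therefore depend on those WT spots, and how they alter the WT fit was not tested. All named genes numbered 1459 higher and 694 lower, but 601 and 1701 after normexp, 760 and 369 with backgrounds replaced, and 1113 were lower with no filter. No paired analysis was possible because each genotype has 1 array, and no array could be left out. Members detected on neither array have no measured difference, and those detected in KO alone have only a bound. The lowest signals called well above background were 14.0 in WT and 10.4 in KO.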
